A study of Mus musculus with 24 samples.

Results

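Mouse embryonic stem cells that lack Setd3 were compared with wild-type cells of the same CJ9 line on day 3 of a differentiation towards endoderm, the first day after Activin A was given. The libraries were selected by their labels for genotype and day, 3 knock-out and 3 wild-type libraries of the 24 in the series, which also covers days 0, 2 and 4. Cells of both genotypes had been grown with LIF on inactivated mouse embryonic fibroblasts, taken off these feeders, kept for 2 days in a serum-free endoderm medium, and then passaged as single cells into the same medium with Activin A. The knock-out cells carry a CRISPR-Cas9 disruption of Setd3 and are 1 line, so an effect of Setd3 and a trait of that line cannot be told apart. The labels do not say that replicates were separate cultures, and p-values measure only the spread between these libraries. Polyadenylated RNA was sequenced. In such bulk samples, fewer cells of a type and less RNA per cell cannot be told apart.

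Setd3 encodes a SET-domain enzyme known to methylate a histidine of actin. Activin A signals through the receptors that Nodal uses, and epiblast-stage cells that receive this signal together with Wnt pass through a primitive streak stage, in which they lose epithelial junctions, move apart and become mesoderm or definitive endoderm. The study asked about the role of Setd3 in endoderm differentiation. The streak, Wnt and pluripotency genes are left aside below, except where another group holds them, and the rest of the transcriptome is described.

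Levels are in CPM, a count divided by the TMM-corrected library size so that depth is equal between libraries. A gene is said to have risen or fallen where edgeR's quasi-likelihood test gave a Benjamini-Hochberg adjusted p under 0.05 over all 17144 tested genes. Fold changes are log2 values of knock-out over wild-type, and the value after ± is that fold change, without its sign, divided by the square root of the F statistic.

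The 3 knock-out libraries held 24244958, 22350185 and 23445624 counts, and the 3 wild-type libraries 21403797, 18756912 and 22540026 counts. The wild-type libraries were less alike than the knock-out ones: wild-type replicate 1 was the highest wild-type library for 58.5% of the genes that fell at least 2-fold, and the lowest for 69.2% of those that rose at least 2-fold. For gene lists and named genes, the value without it is given where a call ends or a count moves by more than 1.5 times. Without it, 5676 genes passed in place of 7069, of which 5508 had passed with all 6 libraries in the same direction and 0 in the opposite direction. The stem cell identity in the labels was checked on markers: Pou5f1 had 457, 449.9 and 468 CPM in knock-out libraries and 401, 422 and 435 CPM in wild-type libraries (log2 fold change 0.13 ± 0.13, adjusted p = 0.462), while the entry for Sox2 was 0 in every library. Of 5 stem cell and epiblast markers 4 were tested, of which 1 fell and 0 rose. They summed to 1557, 1590 and 1561 CPM in knock-out libraries and 1688, 1752 and 1808 CPM in wild-type libraries. Defining markers of fibroblast feeders summed to 52.8, 38.9 and 37.1 CPM in knock-out libraries and 23.5, 22.7 and 24.04 CPM in wild-type libraries, and 1 of their 8 genes, Thy1, rose. The 5 tested markers of extraembryonic endoderm summed to at most 1.66 CPM in knock-out libraries and 1.92 CPM in wild-type libraries. The 2 tested markers of trophoblast summed to at most 0.395 CPM in knock-out libraries and 1.44 CPM in wild-type libraries, and both fell. The part of such cells in the results was not tested. Blood markers summed to 2.11 to 3.05 CPM in knock-out libraries and 0.905 to 1.16 CPM in wild-type libraries, and 2 of their 3 tested genes rose.

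Setd3 itself (ENSMUSG00000056770, chr12:108106431-108179314 on GRCm38, minus strand) had 31.7, 33.7 and 29.4 CPM in knock-out libraries, against 124, 116 and 121 CPM in wild-type libraries. All knock-out libraries lay below all wild-type libraries (log2 fold change -1.93 ± 0.06, adjusted p = 2.85e-17), and transcript remained in each of them. The labels do not give the edited site. Setd3 lies within the lowered block of chromosome 12 described further on, and the part of that block in its value was not tested.

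The genotype difference on day 3 reached 7069 of 17144 tested genes (41.2%), of which 3563 were higher (20.8%) and 3506 lower (20.5%) in knock-out cells. Most of these differences were small: 5046 genes changed less than 2-fold, and the median size of a called log2 fold change was 0.554. At least 2-fold, 899 genes rose (5.24%) and 1124 fell (6.56%). For 6890 called genes (40.2% of those tested) the 3 knock-out and 3 wild-type libraries did not overlap. Direction differed by kind of transcript: of 355 tested antisense transcripts 13 rose and 58 fell, of 680 lincRNAs 86 rose and 109 fell, and of 14553 protein-coding genes 3360 rose and 3152 fell. Whether counting used strand is not stated in the labels, so reads of an antisense transcript and of its partner on the opposite strand cannot be told apart.

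Genes that were nearly silent in one genotype lay on one side. Among 17144 tested genes, 24 had a mean under 1 CPM in knock-out libraries and of 10 CPM or more in wild-type libraries. In the reverse direction there were 0. The wild-type mean includes replicate 1, and the count was not repeated without it. Of the 24, 8 were known streak or Wnt genes. The others included the endoderm factors Sox17 and Gata6, the ligand Bmp2, the receptors Aplnr, Cxcr4 and Pdgfra, the adhesion receptor Itga8 and the transcription factors Six2, Foxq1 and Snai1. Some reached a mean of 10 CPM only with wild-type replicate 1. In wild-type replicates 2 and 3, Sox17 had 12.4 and 5.14 CPM and Bmp2 had 11.3 and 6.52 CPM.

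Among lowered genes that passed a filter (at least 10 CPM in wild-type libraries, no overlap, outside the known lists and distal chromosome 12), the largest change was in Cyp26a1, which clears retinoic acid. It had 0, 0.0460 and 0.175 CPM in knock-out libraries, against 49.6, 20.1 and 9.02 CPM in wild-type libraries (log2 fold change -8.37 ± 0.94, adjusted p = 1.97e-06). Gata6, a GATA factor of endoderm and mesoderm, had 0.254, 0.0920 and 0.0439 CPM in knock-out libraries, against 46.7, 16.3 and 7.37 CPM in wild-type libraries (-7.41 ± 0.93, adjusted p = 7.16e-06). In both genes the groups lay far apart, and wild-type replicate 1 was the highest library. Without that library the fold changes were -7.51 for Cyp26a1 and -6.41 for Gata6. Xlr3a, an X-linked gene with near-identical copies, so that its count is uncertain, had 0.169, 0.184 and 0.219 CPM in knock-out libraries and 15.3, 17.0 and 20.02 CPM in wild-type libraries (-6.47 ± 0.32). The antisense transcript Evx1os and Lhx1os, annotated as a lincRNA, fell by 6.38 and 6.32 on the log2 scale, next to the streak genes Evx1 and Lhx1. Aplnr, the receptor for apelin and Elabela, had 0.720, 0.276 and 0.351 CPM in knock-out libraries, against 41.0, 23.5 and 12.2 CPM in wild-type libraries (-5.79 ± 0.52, adjusted p = 2.04e-07).

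Upp1, which cleaves uridine, had 3.77, 4.19 and 3.38 CPM in knock-out libraries, against 224, 109 and 67.6 CPM in wild-type libraries (-5.14 ± 0.47, adjusted p = 1.77e-07). Pcdh7, a protocadherin, had 2.24, 1.43 and 2.10 CPM in knock-out libraries and 91.4, 49.3 and 36.6 CPM in wild-type libraries (-4.93 ± 0.51). The lowest wild-type library was many times above the highest knock-out library in each. Of the same rank were Foxq1 (-6.45 ± 0.71), a forkhead factor, Six2 (-5.66 ± 0.56), a homeobox factor of kidney and face, and Grrp1 (-5.09 ± 0.38).

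**Figure D1:**
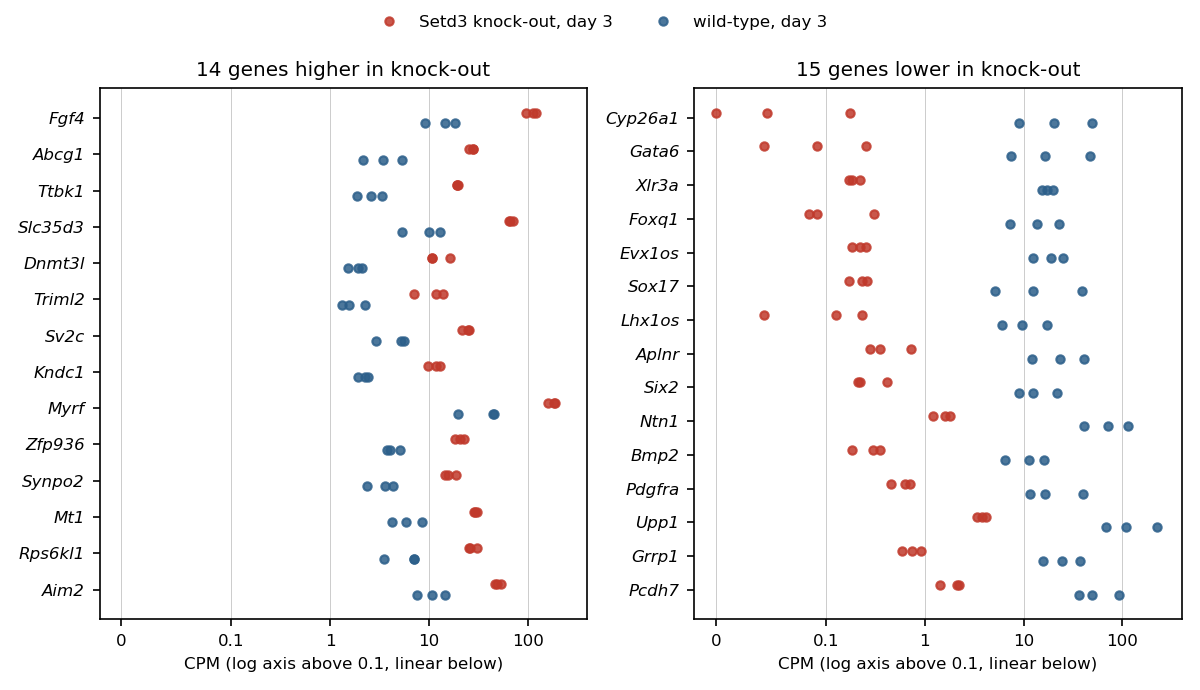
CPM in each of the 3 knock-out and 3 wild-type libraries of day 3 (log axis above 0.1 CPM, linear below) for 14 of the 15 highest and for the 15 lowest genes outside the known streak, Wnt and pluripotency genes and outside chromosome 12 from 90 Mb, chosen with at least 10 CPM in the higher group and no overlap, and ordered by the size of the change. The points run from 96.5 to 122 CPM in knock-out and 9.20 to 18.5 CPM in wild-type libraries for Fgf4 to at most 0.175 CPM in knock-out and at least 9.02 CPM in wild-type libraries for Cyp26a1.

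Among raised genes with at least 10 CPM in knock-out libraries, no overlap between genotypes and a place outside the known lists and distal chromosome 12, Fgf4 had the largest change. It is the FGF ligand that mouse stem cells make themselves, and had 112, 122 and 96.5 CPM in knock-out libraries, against 9.20, 14.4 and 18.5 CPM in wild-type libraries (log2 fold change 2.97 ± 0.20, adjusted p = 2.81e-09). Abcg1, a cholesterol exporter, followed with 27.8, 27.7 and 25.6 CPM in knock-out libraries and 2.17, 3.41 and 5.27 CPM in wild-type libraries (2.89 ± 0.21). The groups lay apart in both genes, and the knock-out libraries differed little among themselves. Ttbk1, a tau-tubulin kinase, Slc35d3, an orphan nucleotide sugar transporter, and Dnmt3l, the cofactor of the de novo DNA methyltransferases, rose by 2.88 ± 0.20, 2.83 ± 0.21 and 2.78 ± 0.28. Myrf, a membrane-bound transcription factor, had 183, 189.7 and 160.1 CPM in knock-out libraries, against 19.8, 44.1 and 46.0 CPM in wild-type libraries (2.28 ± 0.21, adjusted p = 1.92e-07). Others of the 15 were Triml2 and Mt1 on chromosome 8, the synaptic vesicle protein gene Sv2c, Kndc1, the zinc finger gene Zfp936, the actin-binding Synpo2, Rps6kl1 and the DNA sensor Aim2, at 2.20 to 2.70. Aim2 had 47.1, 53.7 and 48.3 CPM in knock-out libraries, against 7.55, 14.5 and 10.7 CPM in wild-type libraries (2.20 ± 0.13, adjusted p = 1.46e-11).

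Most definitive endoderm genes with a call were lower in knock-out cells: of 18 tested members 9 fell and 4 rose, with a median log2 fold change of -1.14 beside -0.01 over all genes. Without wild-type replicate 1 these counts were 7 and 3. Sox17, the endoderm-determining HMG-box factor, had 0.169, 0.230 and 0.263 CPM in knock-out libraries, against 38.8, 12.4 and 5.14 CPM in wild-type libraries (-6.38 ± 0.89, adjusted p = 2.14e-05, and -5.25 without wild-type replicate 1). Foxa1, a pioneer factor of gut endoderm, had 0.339, 0.184 and 0.132 CPM in knock-out libraries and 14.3, 8.25 and 3.93 CPM in wild-type libraries (-5.29 ± 0.56). Hhex, a homeobox factor of anterior endoderm, had 2.46, 2.39 and 1.93 CPM in knock-out libraries, against 30.8, 16.3 and 9.20 CPM in wild-type libraries (-3.05 ± 0.40, adjusted p = 9.52e-06). Knock-out libraries were uniformly low, and the wild-type libraries ran over a wide range with replicate 1 on top. Gata4 (-2.53 ± 0.40), Rbm47 (-1.45 ± 0.17), an RNA-binding protein, and Cxcr4 (-4.31 ± 0.68), the chemokine receptor used to sort endoderm, fell as well. Among the 4 raised members, the claudin Cldn6 had 274, 281 and 289 CPM in knock-out libraries and 178, 183 and 206 CPM in wild-type libraries (0.57 ± 0.14, adjusted p = 0.00364), and the adhesion molecule Epcam had 356, 366 and 358 CPM in knock-out libraries and 282, 292 and 294 CPM in wild-type libraries (0.32 ± 0.07, adjusted p = 0.00133). Trh, the thyrotropin-releasing hormone gene, rose by 0.28 ± 0.10 (adjusted p = 0.0407), a call lost without wild-type replicate 1 (0.18, adjusted p = 0.219).

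Of 13 tested notochord and node genes 7 fell and 0 rose (median -2.51). Chrd, the BMP antagonist of the node, had 6.35, 6.03 and 5.26 CPM in knock-out libraries, against 31.1, 34.8 and 24.3 CPM in wild-type libraries (-2.35 ± 0.29, adjusted p = 2.12e-06). Pkd1l1, a polycystin that nodal cilia use to sense flow, had 2.03, 2.30 and 2.37 CPM in knock-out libraries, against 25.8, 20.3 and 13.0 CPM in wild-type libraries (-3.14 ± 0.29). No knock-out library reached the wild-type range in either gene.

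Secreted signals and their receptors were shifted in several families. In the BMP family 9 of 21 genes fell and 2 rose (median -0.53), and 9 and 1 without wild-type replicate 1. Bmp7 had 6.27, 7.32 and 5.44 CPM in knock-out libraries, against 56.5, 49.3 and 33.0 CPM in wild-type libraries (-2.87 ± 0.28, adjusted p = 1.58e-07). Bmp2 had 0.296, 0.184 and 0.351 CPM in knock-out libraries and 16.0, 11.3 and 6.52 CPM in wild-type libraries (-5.31 ± 0.53). Some targets and transducers of the pathway fell: Id1, a helix-loop-helix inhibitor, by 2.73, Msx1, a homeobox factor, by 1.35, Smad6, an inhibitory SMAD, by 1.13 and the transducers Smad1 and Smad5 by 0.57 and 0.52. The related Id2, Id3, Id4, Msx2 and Smad9 did not pass the test. Bmp4 moved the other way, with 4.06, 4.88 and 3.42 CPM in knock-out libraries and 1.70, 2.02 and 2.06 CPM in wild-type libraries (1.09 ± 0.23, adjusted p = 0.000438). Fst, which binds and blocks Activin, had 41.0, 36.0 and 46.3 CPM in knock-out libraries, against 349, 319 and 278 CPM in wild-type libraries (-2.94 ± 0.34, adjusted p = 3.08e-06). In the Nodal and Activin pathway as a whole, 7 of 23 genes rose and 6 fell.

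Among guidance molecules, which steer migrating cells and axons, 15 of 41 semaphorins, plexins, slits, netrins and their receptors fell and 8 rose, and 11 and 5 did so without wild-type replicate 1. The median was -0.23. Ntn1, the secreted netrin (ENSMUSG00000020902, chr11:68209364-68400823), had 1.61, 1.20 and 1.80 CPM in knock-out libraries, against 115, 70.9 and 40.7 CPM in wild-type libraries (-5.61 ± 0.41, adjusted p = 1.11e-08). Plxna2, a semaphorin receptor, had 1.65, 1.93 and 1.89 CPM in knock-out libraries and 56.1, 45.4 and 29.9 CPM in wild-type libraries (-4.58 ± 0.33). Both were low in all knock-out libraries. Sema6d had 0.974, 1.01 and 1.10 CPM in knock-out libraries, against 23.8, 11.9 and 7.28 CPM in wild-type libraries (-3.79 ± 0.44), and Slit2, a ligand of Robo receptors, had 3.81, 3.87 and 4.30 CPM in knock-out libraries, against 25.3, 17.8 and 11.9 CPM in wild-type libraries (-2.20 ± 0.33). Slit1, Sema7a and Nrp2 fell by 1.96, 1.89 and 1.46. Robo1, the slit receptor, rose: it had 67.5, 65.5 and 66.6 CPM in knock-out libraries and 38.6, 40.5 and 41.1 CPM in wild-type libraries (0.73 ± 0.11, adjusted p = 1.52e-05). Sema4a rose by 1.25 ± 0.18.

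Ephrins and Eph receptors, which signal by contact between cells and set tissue borders, had 8 of 22 members lower and 3 higher. Epha2 had 64.1, 61.0 and 67.1 CPM in knock-out libraries, against 213, 247 and 229 CPM in wild-type libraries (-1.84 ± 0.14, adjusted p = 4.42e-09). Epha1 had 74.8, 66.8 and 77.1 CPM in knock-out libraries and 205, 234 and 228 CPM in wild-type libraries (-1.61 ± 0.18). In these 2 genes the wild-type libraries stood close together and replicate 1 was the lowest of them. The ligands Efnb1 and Efna3 fell by 2.90 and 1.98, Epha7 fell by 1.29, and Ephb4 rose by 0.64.

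Growth factor receptors followed no single direction. Kit, the receptor for stem cell factor, had 15.5, 15.05 and 17.2 CPM in knock-out libraries, against 77.4, 63.4 and 56.9 CPM in wild-type libraries (-2.05 ± 0.17, adjusted p = 1.92e-08). Pdgfa, a PDGF ligand, fell by 2.11 ± 0.16, and its receptor Pdgfra had 0.635, 0.460 and 0.702 CPM in knock-out libraries, against 39.7, 16.4 and 11.7 CPM in wild-type libraries (-5.22 ± 0.63). Erbb3, a neuregulin receptor, rose to 71.7, 76.0 and 74.1 CPM in knock-out libraries, against 30.2, 37.1 and 42.7 CPM in wild-type libraries (1.01 ± 0.14). Over the list of chemokines and cytokine receptors 8 of 28 genes fell and 6 rose.

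Many epithelial junction genes were higher in knock-out cells and several mesenchymal regulators lower. Of 21 tight junction and simple keratin genes 13 rose and 2 fell (median 0.76), and 12 and 2 did so without wild-type replicate 1. Claudins and occludin seal the space between epithelial cells, and the Tjp proteins tie them to actin. Cldn4 (ENSMUSG00000047501) had 43.0, 42.5 and 40.7 CPM in knock-out libraries, against 8.49, 11.6 and 12.3 CPM in wild-type libraries (1.96 ± 0.24, adjusted p = 2.94e-06). Tjp3 had 42.0, 43.1 and 41.0 CPM in knock-out libraries and 10.4, 12.5 and 15.4 CPM in wild-type libraries (1.72 ± 0.23, adjusted p = 8.27e-06). Ocln had 36.9, 35.9 and 36.4 CPM in knock-out libraries, against 18.9, 22.1 and 23.3 CPM in wild-type libraries (0.76 ± 0.10, adjusted p = 7.57e-07). The knock-out libraries were nearly equal in each gene and lay above every wild-type library. Cingulin, Cgn, rose by 0.92 ± 0.14. Cldn1, Cldn3, Marveld2 and F11r rose by 2.01, 1.14, 0.46 and 0.19. Cldn7 rose by 0.40 ± 0.13 (adjusted p = 0.0178), a call lost without wild-type replicate 1 (0.35, adjusted p = 0.0741). The keratins were mixed: Krt18 rose by 0.84 ± 0.24 (adjusted p = 0.00819), Krt7 fell by 1.25 ± 0.28, and Krt8 (0.40 ± 0.24, adjusted p = 0.207) and Krt19 (0.07 ± 0.43, adjusted p = 0.912) did not pass. The other of the 2 lowered members was a junction gene, and both fell at least 2-fold.

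In the list of regulators of the epithelial to mesenchymal transition and cadherins, 8 of 20 genes rose and 6 fell, and 7 and 5 without wild-type replicate 1. The mesenchymal members Snai2, Twist2, Prrx1 and Fn1 did not pass the test. Snai1 (ENSMUSG00000042821, chr2:167538195-167542814), a zinc finger repressor of epithelial genes, had 0.974, 0.736 and 1.10 CPM in knock-out libraries, against 16.2, 15.8 and 12.7 CPM in wild-type libraries (-3.98 ± 0.28, adjusted p = 7.18e-11). Zeb2, a repressor of the same genes, had 4.83, 3.59 and 5.26 CPM in knock-out libraries and 18.3, 17.1 and 15.5 CPM in wild-type libraries (-1.89 ± 0.24, adjusted p = 3.15e-06). No library overlapped between the genotypes. Zeb1 (-1.66 ± 0.33), Twist1 (-1.35 ± 0.22) and the mesenchymal cadherin Cdh11 (-2.78 ± 0.37) fell too, and the intermediate filament gene Vim fell by 0.64 ± 0.23 (adjusted p = 0.032), a call lost without wild-type replicate 1 (-0.41, adjusted p = 0.211). On the epithelial side E-cadherin, Cdh1, had 1506, 1479 and 1432 CPM in knock-out libraries, against 852, 1002 and 1025 CPM in wild-type libraries (0.62 ± 0.06, adjusted p = 2.08e-08). Crb3, which sets the apical side of a cell, had 42.8, 45.0 and 45.7 CPM in knock-out libraries and 22.5, 26.4 and 25.4 CPM in wild-type libraries (0.85 ± 0.10). Grhl2, a grainyhead factor of epithelia, had 88.5, 96.4 and 85.6 CPM in knock-out libraries, against 34.1, 43.4 and 47.1 CPM in wild-type libraries (1.12 ± 0.11, adjusted p = 3.36e-08). Its relative Grhl1 and the epithelial splicing factor Esrp2 rose by 1.68 and 1.37. Cdh1, Cdh3, Cdh11, Esrp2 and Marveld3 lie on chromosome 8, where 369 of 845 tested genes rose, and its part in their values was not tested.

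**Figure D2:**
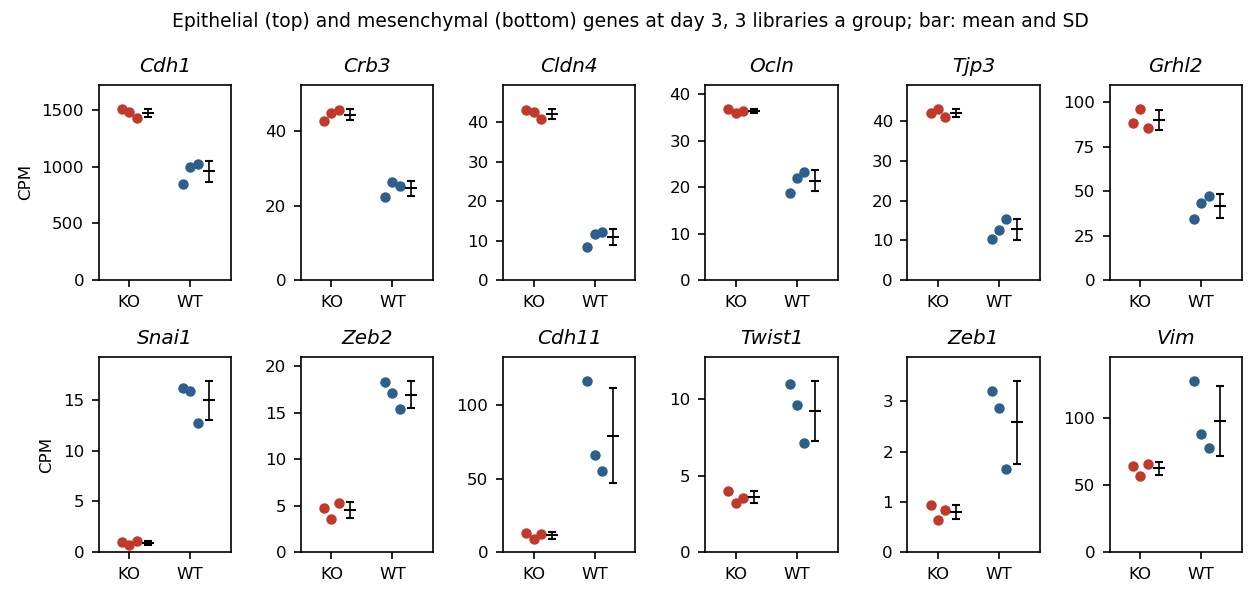
CPM in each day 3 library of 6 epithelial genes (top) and 6 mesenchymal genes (bottom), knock-out at the left and wild-type at the right of each panel, with the mean and SD of 3 libraries. Knock-out libraries lie above all wild-type libraries in the top panels and below them in the bottom panels. Of the genes shown, Cdh1 and Cdh11 lie on chromosome 8.

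Snail and Zeb repressors are known to bind the E2-box, CACCTG, which reads CAGGTG on the other strand. RefSeq promoter windows on GRCm38.p6, from 250 bases before to 50 bases after the annotated start, could be matched for 10 of the 13 raised tight junction and keratin genes. The letters were present on either strand in 8 of these 10, in 1 of 2 matched genes that fell, in 1 of 4 that did not pass, and in 20.2% of all 32851 windows. Counted by gene, with any annotated start, they were in 22.6% of 27025 genes. A match describes the letters of the window and is not a binding site. In the list of transition regulators and cadherins the letters were in 1 of 3 matched genes that rose (Crb3), 1 of 4 that fell (Snai1) and 1 of 3 that did not pass. The windows of 4 raised epithelial genes that hold the motif are shown, 5′ to 3′ along the gene, so that its place can be read. Capitals mark the E2-box on either strand.
Crb3, chr17:57061951-57062250, plus strand: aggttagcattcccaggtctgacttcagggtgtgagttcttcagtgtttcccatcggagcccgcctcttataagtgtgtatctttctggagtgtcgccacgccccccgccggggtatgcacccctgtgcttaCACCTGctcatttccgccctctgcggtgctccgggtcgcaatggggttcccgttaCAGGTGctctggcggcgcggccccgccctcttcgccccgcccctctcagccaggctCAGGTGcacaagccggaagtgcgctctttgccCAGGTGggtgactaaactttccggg
Cldn4, chr5:134946885-134947184, minus strand: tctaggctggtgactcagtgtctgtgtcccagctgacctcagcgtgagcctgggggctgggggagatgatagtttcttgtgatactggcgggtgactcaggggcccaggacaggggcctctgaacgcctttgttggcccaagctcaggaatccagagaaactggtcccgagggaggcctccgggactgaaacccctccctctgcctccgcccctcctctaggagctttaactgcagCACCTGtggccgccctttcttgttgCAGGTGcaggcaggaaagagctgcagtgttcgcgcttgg
Ocln, chr13:100552669-100552968, minus strand: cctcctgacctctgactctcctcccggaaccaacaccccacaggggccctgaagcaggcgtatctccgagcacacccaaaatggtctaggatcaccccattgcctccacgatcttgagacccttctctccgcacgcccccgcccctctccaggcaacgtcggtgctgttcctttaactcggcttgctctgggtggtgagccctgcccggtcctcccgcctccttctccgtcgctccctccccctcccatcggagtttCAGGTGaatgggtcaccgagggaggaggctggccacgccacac
Tjp3, chr10:81291532-81291831, minus strand: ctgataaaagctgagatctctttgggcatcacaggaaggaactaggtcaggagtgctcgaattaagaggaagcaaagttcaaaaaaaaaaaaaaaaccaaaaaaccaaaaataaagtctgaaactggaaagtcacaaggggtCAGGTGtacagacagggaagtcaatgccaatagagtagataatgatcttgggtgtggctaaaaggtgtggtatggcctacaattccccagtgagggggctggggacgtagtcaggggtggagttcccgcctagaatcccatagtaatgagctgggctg
Crb3 holds 4 matches in this window, Cldn4 holds 2, and Ocln and Tjp3 hold 1 each. The grainyhead motif AACCGGTT, which reads the same on both strands, was in 0 of the 10 windows. It is rare, in 0.146% of all 32851 windows, so 0 of 10 does not set these genes apart.

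Cilium genes were lower more often than higher. Of 44 tested genes for cilia, among them transcription factors, the intraflagellar transport proteins that carry cargo along the cilium and the BBSome that sorts membrane proteins, 25 fell and 2 rose (median -0.44). Without wild-type replicate 1 the counts were 25 and 1. Foxj1, the master regulator of motile cilia, had 4.87, 6.26 and 5.31 CPM in knock-out libraries, against 39.1, 40.2 and 23.1 CPM in wild-type libraries (-2.64 ± 0.35, adjusted p = 1.07e-05). Bbs1, a BBSome subunit, had 1.52, 1.15 and 1.45 CPM in knock-out libraries and 9.62, 8.15 and 9.43 CPM in wild-type libraries (-2.71 ± 0.24, adjusted p = 2.89e-09). In both genes the knock-out libraries lay well below the wild-type libraries. Pkd1l1, described above with the node genes, and Dnah11 (-2.57) are also on the list. Transport and motor genes moved less. Kif3a, a motor subunit of outward transport, had 17.0, 16.3 and 13.5 CPM in knock-out libraries, against 36.3, 29.3 and 27.5 CPM in wild-type libraries (-0.99 ± 0.09). Ift88, a transport protein, had 14.6, 14.95 and 15.1 CPM in knock-out libraries, against 22.9, 26.1 and 22.2 CPM in wild-type libraries (-0.67 ± 0.08, adjusted p = 4.18e-07). Rfx3, a factor for cilium genes, fell by 0.79 ± 0.12, Kif3b by 0.67, Ift22 by 0.74, Ift81 by 0.65 and Ift52 by 0.52. The retrograde motor chains Wdr34 and Wdr60 fell by 0.92 and 0.90. Of the 2 that rose, Ttc8, a BBSome subunit, lies in the raised block of chromosome 12 (0.55 ± 0.10). Arl13b, a small GTPase of the cilium membrane, passed narrowly (0.21 ± 0.08, adjusted p = 0.045), a call lost without wild-type replicate 1 (0.21, adjusted p = 0.101). Wdr60 and Dnah11 lie in the lowered block of chromosome 12, whose part in their values was not tested.

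**Figure D3:**
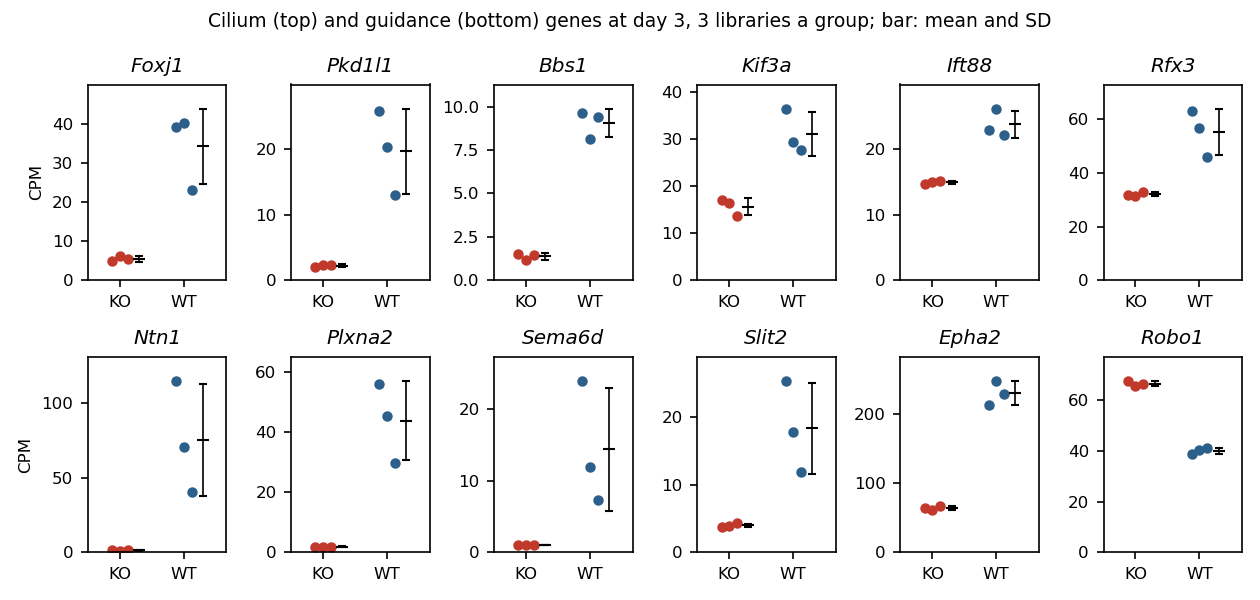
CPM in each day 3 library of 6 cilium genes (top) and 6 guidance and Eph receptor genes (bottom), knock-out left and wild-type right, with the mean and SD of 3 libraries. In 11 of the 12 panels the knock-out libraries lie below all wild-type libraries, and in Robo1 they lie above them.

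Metallothioneins, small cysteine-rich proteins that bind zinc and copper, and glutathione enzymes were higher in knock-out cells. Of 26 genes for antioxidant response and metallothioneins 14 rose and 5 fell (median 0.30), with the same counts without wild-type replicate 1. Outside chromosome 8 and the distal chromosome 12 blocks 8 rose and 5 fell. Mt1 (ENSMUSG00000031765) had 29.0, 30.4 and 28.8 CPM in knock-out libraries, against 4.25, 5.80 and 8.49 CPM in wild-type libraries (2.24 ± 0.18, adjusted p = 5.33e-09). Its neighbour Mt2 had 6.05, 7.50 and 5.74 CPM in knock-out libraries and 0.943, 0.799 and 0.983 CPM in wild-type libraries (2.81 ± 0.21, adjusted p = 2.12e-10). The genotypes did not overlap in either gene. Both lie on chromosome 8, as do Mt3 (1.23 ± 0.32), Hmox1 (0.43 ± 0.07) and Gsr (0.44 ± 0.05), and the part of that chromosome in their values was not tested. On other chromosomes Gstm1, a glutathione transferase, had 61.2, 68.4 and 59.5 CPM in knock-out libraries, against 16.7, 23.2 and 22.4 CPM in wild-type libraries (1.60 ± 0.11, adjusted p = 5.08e-11). Its close relative Gstm2 rose by 1.46 ± 0.13, and reads of the pair may have been split between them. Gclm, the regulatory subunit of glutathione synthesis, had 42.2, 40.8 and 43.4 CPM in knock-out libraries and 16.0, 20.6 and 25.1 CPM in wild-type libraries (1.03 ± 0.12). Nfe2l2, which encodes the regulator NRF2, Gclc and Txnrd1 rose by 0.51, 0.38 and 0.30. Gpx4, which reduces lipid peroxides, fell, with 20.6, 21.5 and 20.1 CPM in knock-out libraries and 46.3, 37.9 and 31.1 CPM in wild-type libraries (-0.89 ± 0.13, adjusted p = 9.14e-06).

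Metal response elements, the binding sequence of the zinc-sensing factor MTF1, have the core TGCACNC or TGCGCNC. This core was searched on both strands and occurs in 25.7% of all RefSeq promoter windows and, counted by gene, in 28.2%. On the antioxidant and metallothionein list it was in 5 of 11 matched genes that rose, 1 of 4 that fell and 0 of 6 that did not pass. The windows of Mt1 and Mt2 are shown because these were the raised pair of metal-binding genes with the largest changes, and capitals mark the core.
Mt1, chr8:94178839-94179138, plus strand: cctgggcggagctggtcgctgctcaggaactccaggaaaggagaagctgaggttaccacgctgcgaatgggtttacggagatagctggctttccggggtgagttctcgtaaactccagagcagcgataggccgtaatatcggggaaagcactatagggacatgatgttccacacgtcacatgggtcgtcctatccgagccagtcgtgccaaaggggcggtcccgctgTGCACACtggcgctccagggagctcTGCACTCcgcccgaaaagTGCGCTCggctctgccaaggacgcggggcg
Mt2, chr8:94172368-94172667, plus strand: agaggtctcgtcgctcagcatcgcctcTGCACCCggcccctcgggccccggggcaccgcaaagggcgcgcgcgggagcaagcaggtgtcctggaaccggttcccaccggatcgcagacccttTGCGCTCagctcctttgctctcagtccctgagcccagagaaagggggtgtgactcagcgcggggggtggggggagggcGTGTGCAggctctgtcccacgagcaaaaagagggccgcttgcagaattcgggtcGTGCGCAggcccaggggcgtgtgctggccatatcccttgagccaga
Mt1 holds 3 matches and Mt2 holds 4, which again describes letters and not use.

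FGF, Notch, Hedgehog and retinoid genes each had members in both directions. In the FGF list 8 of 25 genes rose and 8 fell. Beside Fgf4, the receptor Fgfr2 (0.61 ± 0.10) and Spry1, an inhibitor induced by FGF, were raised, and Spry1 had 45.9, 47.1 and 46.2 CPM in knock-out libraries, against 16.6, 21.1 and 22.2 CPM in wild-type libraries (1.21 ± 0.09, adjusted p = 1.4e-10). Fgf17 had 1.86, 2.21 and 2.24 CPM in knock-out libraries, against 14.8, 11.7 and 8.67 CPM in wild-type libraries (-2.48 ± 0.24, adjusted p = 2.94e-08). Il17rd and Dusp6, feedback inhibitors of ERK signalling, moved against Spry1. Il17rd had 195, 193 and 198 CPM in knock-out libraries and 339, 370.0 and 337 CPM in wild-type libraries (-0.83 ± 0.06), and Dusp6 had 120.3, 119.8 and 121 CPM in knock-out libraries and 201, 175 and 159 CPM in wild-type libraries (-0.57 ± 0.12).

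In the Notch list 5 of 22 genes rose and 4 fell, and 3 and 3 without wild-type replicate 1. The ligands Jag1 and Dll3 and the target Hes1 were lower. Jag1 had 27.0, 25.0 and 27.4 CPM in knock-out libraries, against 94.3, 59.4 and 47.8 CPM in wild-type libraries (-1.34 ± 0.18, adjusted p = 1.02e-05). Hes1 had 40.2, 39.4 and 46.0 CPM in knock-out libraries, against 101, 82.5 and 72.4 CPM in wild-type libraries (-1.03 ± 0.16). The groups were apart, with wild-type replicate 1 on top in both. The nuclear effector Rbpj, the glycosyltransferase Mfng and the ubiquitin ligase Dtx1 rose by 0.52, 1.43 and 1.00, and the receptor Notch1 rose by 0.70 ± 0.23 (adjusted p = 0.0187), a call lost without wild-type replicate 1 (0.51, adjusted p = 0.108).

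In the Hedgehog list, targets were higher and some cofactors lower. Gli1, a transcription factor and target of the pathway, had 6.94, 6.95 and 7.24 CPM in knock-out libraries, against 1.89, 2.13 and 2.19 CPM in wild-type libraries (1.76 ± 0.18, adjusted p = 2.21e-08). Ptch1, the receptor and target, had 112, 117 and 107 CPM in knock-out libraries and 41.4, 51.1 and 44.1 CPM in wild-type libraries (1.30 ± 0.12, adjusted p = 8.37e-08). The knock-out libraries of both genes were at least 2-fold above the wild-type ones. Hhip on chromosome 8, another target, rose by 1.54 ± 0.39 at under 2 CPM, and Gli3 rose by 0.71. The co-receptor Gas1 and Scube2, which helps release the ligand, fell by 1.59 and 1.85. Over the list 4 of 17 genes rose and 5 fell.

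Of 21 retinoic acid genes 7 fell and 4 rose, but 5 fell and 5 rose without wild-type replicate 1. Beside Cyp26a1, Dhrs3, which turns retinal back to retinol, fell by 1.22 ± 0.22. The binding protein Crabp2 and the receptor Rarg rose by 0.99 and 0.72.

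Imprinted genes, expressed from one parental copy, had 10 of 27 members lower and 5 higher (median -0.25), and 13 and 5 without wild-type replicate 1. The lowered ones included the Peg3 domain. Peg3 (ENSMUSG00000002265, chr7:6703892-6730431), a zinc finger gene, had 125, 123 and 124 CPM in knock-out libraries, against 483, 425 and 381 CPM in wild-type libraries (-1.79 ± 0.09, adjusted p = 8.39e-12). Usp29, which shares its promoter region, had 3.05, 2.67 and 3.03 CPM in knock-out libraries and 15.4, 12.5 and 10.0 CPM in wild-type libraries (-2.11 ± 0.15). The distance between genotypes was many times the spread within them. Mest, Peg12 and, in the lowered block of chromosome 12 described further on, Dlk1 fell by 1.05, 2.72 and 2.30, and the part of that block in the value of Dlk1 was not tested. Grb10, an adaptor that restrains growth signals, rose, with 235, 229 and 256 CPM in knock-out libraries and 94.9, 77.2 and 59.6 CPM in wild-type libraries (1.63 ± 0.21, adjusted p = 9.9e-06). Phlda2, a growth restrainer of the placenta, and the transporter gene Slc22a3 rose by 1.57 and 2.06.

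In the DNA methylation list 7 of 15 genes rose and 2 fell. Tet1, which oxidises methylcytosine, had 284, 303 and 270.1 CPM in knock-out libraries, against 118, 180.3 and 185 CPM in wild-type libraries (0.83 ± 0.15, adjusted p = 0.00025). Zfp57, which protects methylation at imprinted regions, fell to 22.0, 20.6 and 18.9 CPM in knock-out libraries, against 41.5, 39.3 and 34.4 CPM in wild-type libraries (-0.90 ± 0.09). The 3 knock-out libraries were above all wild-type libraries in Tet1 and below them in Zfp57. Of 28 Polycomb genes 6 rose and 7 fell, 46.4% together beside 41.2% over all tested genes, and related members moved in opposite directions. Among the PHC subunits, Phc1 had 538, 522 and 512 CPM in knock-out libraries and 237, 315 and 332 CPM in wild-type libraries (0.83 ± 0.13), while Phc2 had 36.2, 35.6 and 40.4 CPM in knock-out libraries and 102, 95.4 and 82.1 CPM in wild-type libraries (-1.32 ± 0.12, adjusted p = 3.47e-08). Cbx7 rose by 0.99, and Bmi1 and Ring1 fell by 1.23 and 1.07.

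Interferon response genes had 10 of 25 members higher and 4 lower (median 0.38), and 9 and 3 without wild-type replicate 1. Oasl2, an antiviral protein gene, had 5.21, 7.82 and 4.43 CPM in knock-out libraries, against 0.849, 0.852 and 1.21 CPM in wild-type libraries (2.57 ± 0.30, adjusted p = 3.11e-07). Bst2, which tethers virus particles and lies on chromosome 8, had 127, 128 and 121 CPM in knock-out libraries and 51.2, 66.5 and 71.3 CPM in wild-type libraries (0.99 ± 0.12). Ifit2 and the regulator Irf1 rose by 0.85 and 0.54. The class I histocompatibility genes moved against them. H2-K1 had 37.1, 37.5 and 38.8 CPM in knock-out libraries, against 68.7, 73.3 and 74.4 CPM in wild-type libraries (-0.93 ± 0.11, adjusted p = 1.9e-07), and H2-D1 fell by 0.78 ± 0.13. These 2 are close relatives, and reads may have been split between them.

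Growth and metabolism moved by small steps. Of 39 replication and cell cycle genes 17 rose and 3 fell (median 0.12), 14 and 3 without wild-type replicate 1. Mcm2, of the replicative helicase, had 569.9, 559 and 559.8 CPM in knock-out libraries and 460.4, 486 and 497 CPM in wild-type libraries (0.23 ± 0.04, adjusted p = 9.92e-05). Bub1b, a spindle checkpoint kinase, had 325, 332 and 323 CPM in knock-out libraries, against 252, 257 and 267 CPM in wild-type libraries (0.34 ± 0.05). The raised members also held inhibitors of the cycle: Cdkn1c rose to 14.4, 15.7 and 14.5 CPM in knock-out libraries, against 7.64, 5.64 and 4.20 CPM in wild-type libraries (1.35 ± 0.18), and Cdkn2a rose by 1.57 ± 0.27. Ccnd2 and Ccne2, a D-type and an E-type cyclin, fell by 1.55 and 0.56. Of 26 p53 targets 8 fell and 3 rose. Cdkn1a, the inhibitor p21, had 63.5, 55.3 and 77.0 CPM in knock-out libraries, against 128, 112 and 116 CPM in wild-type libraries (-0.86 ± 0.19, adjusted p = 0.00125), and Perp, a membrane protein of desmosomes, fell by 1.18 ± 0.13.

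Ribosomal protein genes depended on 1 library. With all libraries 19 of 71 fell and 2 rose (median -0.10), but without wild-type replicate 1 only 3 fell and 2 rose. Rpl9 had 681, 693 and 689 CPM in knock-out libraries and 896, 797 and 783 CPM in wild-type libraries (-0.26 ± 0.06, adjusted p = 0.000747). Genes of the nuclear-encoded respiratory chain behaved alike, 10 of 38 lower and 1 higher with all libraries and 5 and 1 without it, as did the proteasome, 9 of 30 lower and 2 higher with all libraries and 5 and 2 without it. Proteasome subunit Psmc1 was the exception in size, with 713, 674 and 669 CPM in knock-out libraries, against 296, 273 and 301 CPM in wild-type libraries (1.24 ± 0.06, adjusted p = 4.4e-14), and it lies in the raised block of chromosome 12.

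Of 23 cholesterol synthesis genes 9 rose and 4 fell. Sqle, an early enzyme of the sterol branch, had 392.4, 413 and 380.4 CPM in knock-out libraries and 267, 291 and 284 CPM in wild-type libraries (0.49 ± 0.06, adjusted p = 1.61e-07). Ebp, a sterol isomerase, had 14.1, 15.1 and 15.1 CPM in knock-out libraries, against 52.5, 41.3 and 39.6 CPM in wild-type libraries (-1.59 ± 0.12, adjusted p = 1.76e-10). In the unfolded protein and amino acid response list 13 of 33 genes rose and 5 fell, and 9 and 4 without wild-type replicate 1. Slc7a3, a transporter of arginine and lysine, had 471, 515 and 481 CPM in knock-out libraries, against 131, 164 and 203 CPM in wild-type libraries (1.56 ± 0.17, adjusted p = 1.32e-06). Of 21 glycolysis genes 6 fell and 5 rose, but 3 fell and 4 rose without wild-type replicate 1, with the early enzymes Hk1 (1.17 ± 0.11) and Pfkp (1.01 ± 0.25) among those that rose. Of 18 hypoxia genes 5 fell and 2 rose, 3 and 2 without it. Ndrg1, a stress-induced gene, had 3.77, 3.50 and 4.52 CPM in knock-out libraries, against 40.7, 40.7 and 27.3 CPM in wild-type libraries (-3.20 ± 0.23, adjusted p = 3.61e-10), while Epas1, which encodes HIF2A, rose by 1.78 ± 0.22. Of 29 lysosome and autophagy genes 8 rose and 3 fell.

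The actin genes themselves, whose protein is the known substrate of SETD3, did not pass the test. Actb had 2189, 2162 and 2202 CPM in knock-out libraries and 2089, 1999 and 2031 CPM in wild-type libraries (0.10 ± 0.06, adjusted p = 0.164), and Actg1 had 1519, 1563 and 1567 CPM in knock-out libraries and 1488, 1474 and 1465 CPM in wild-type libraries (0.07 ± 0.05, adjusted p = 0.297). Actins and targets of the serum response factor SRF had 2 of 20 members higher and 3 lower, and 1 and 3 without wild-type replicate 1. Tagln2, an actin-bundling protein, rose by 0.61 ± 0.07, Fhl2 fell by 0.48 ± 0.15, and Srf (0.12 ± 0.07, adjusted p = 0.195) and Acta2 (-0.39 ± 0.34, adjusted p = 0.389) did not pass. The SRF coactivator Mkl1 and the tropomyosin Tpm1 passed with all libraries (0.44 and -0.40) and not without wild-type replicate 1 (adjusted p = 0.107 and 0.105). Genes of actin assembly and turnover had 14 of 32 members higher and 5 lower, 9 and 4 without that library. Capg, a filament-capping protein, had 42.8, 46.3 and 45.9 CPM in knock-out libraries, against 18.0, 20.2 and 22.9 CPM in wild-type libraries (1.14 ± 0.12, adjusted p = 3.46e-08). The formins Diaph1 and Diaph3 and the membrane linker Ezr rose by 0.47, 0.28 and 0.29, and the bundling protein Lcp1, Wasf1 of the WAVE complex and the profilin Pfn2 fell by 1.36, 0.78 and 0.67. Among 23 other SET-domain and related methyltransferase genes 7 rose and 3 fell, none by 2-fold or more, and 3 rose and 4 fell without wild-type replicate 1.

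Matrix and adhesion genes were split. Of 31 collagen genes 11 fell and 4 rose, 7 and 4 without wild-type replicate 1. Col13a1 and Col23a1, transmembrane collagens, fell by 2.71 and 2.64, and Col4a6 and Col11a1 by 1.63 and 1.41. Col18a1, of epithelial basement membranes, had 259, 259 and 239 CPM in knock-out libraries and 89.6, 133 and 157 CPM in wild-type libraries (1.00 ± 0.15, adjusted p = 3.69e-05). Of 18 integrins 6 fell and 4 rose, but 5 and 1 without wild-type replicate 1. Itga8 had 0.804, 0.552 and 0.877 CPM in knock-out libraries, against 24.1, 11.8 and 7.997 CPM in wild-type libraries (-4.28 ± 0.46, adjusted p = 4.19e-07). Of 18 planar cell polarity genes 8 fell and 4 rose, 7 and 2 without that library, and of 18 protocadherins 7 fell and 3 rose, 6 and 2 without it.

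**Figure D4:**
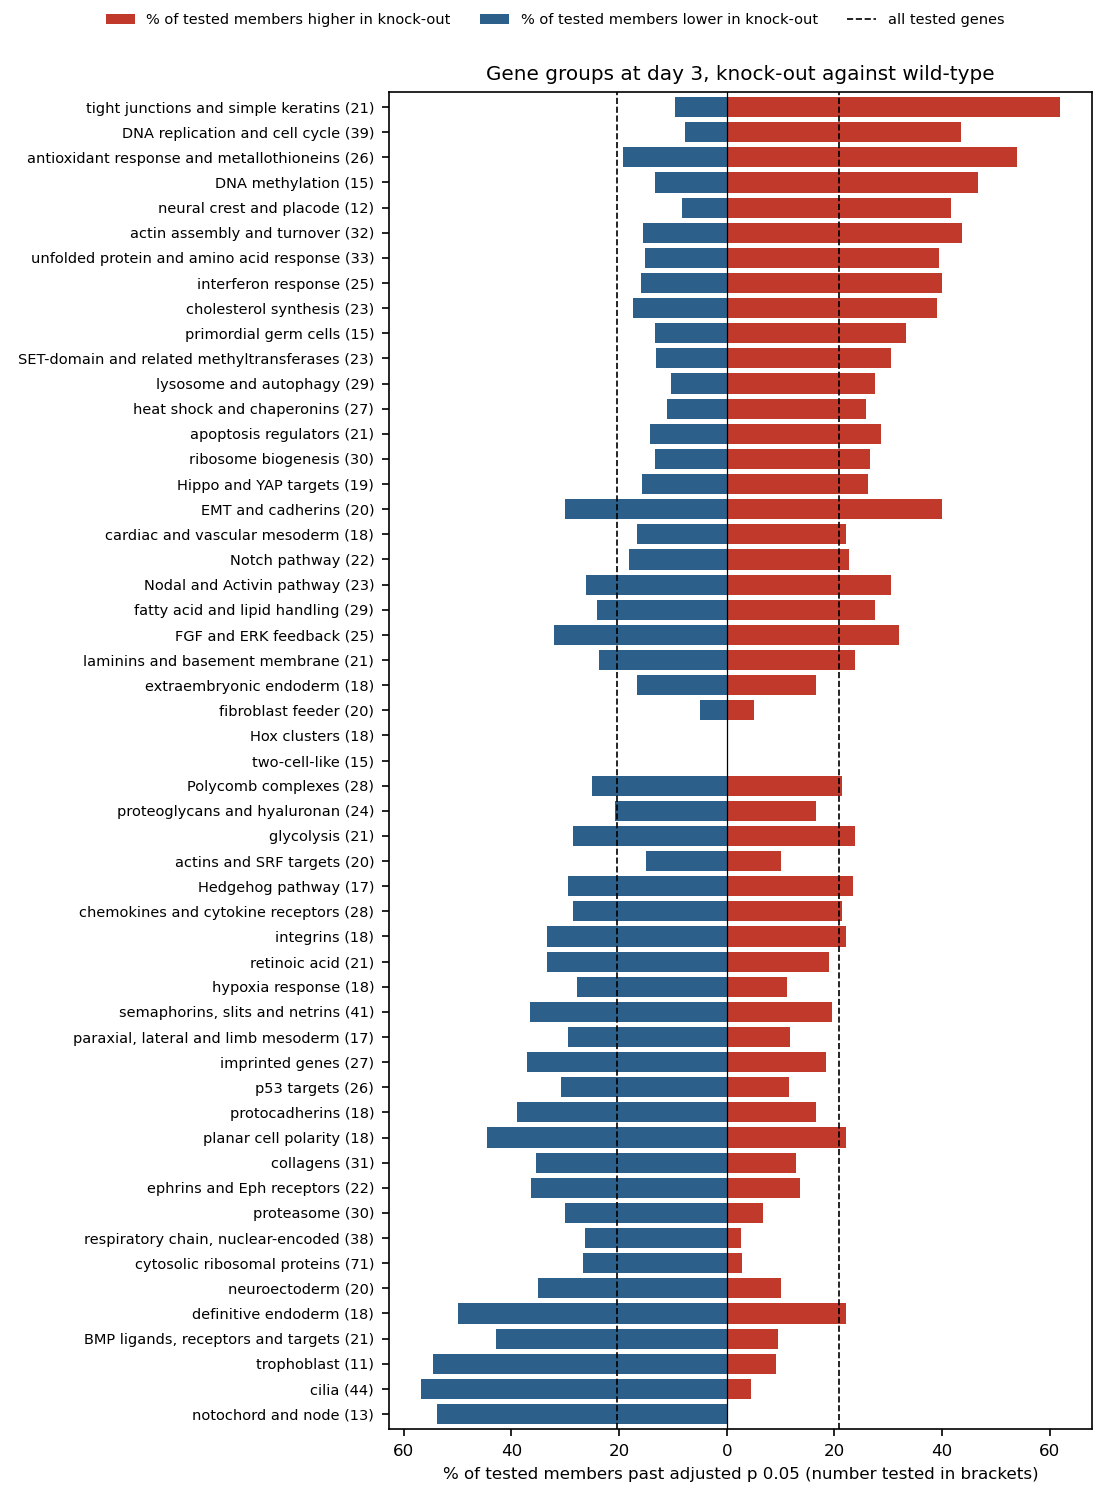
Percent of tested members of each gene group that were higher (to the right) or lower (to the left) in knock-out cells at adjusted p 0.05, with the number of tested members in brackets and dashed lines at the shares over all genes, 20.8% and 20.5%. Groups are ordered by the difference of their 2 shares, from tight junctions and simple keratins at the top to notochord and node at the bottom.

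Lists of other lineages gave few large shares. Hox genes summed to at most 2.03 CPM and genes of the 2-cell stage to at most 1.88 CPM in any library. In trophoblast genes 6 of 11 fell and 1 rose, and members such as Eomes and Tfap2c also belong to the streak or germ cells. Of 4 defining markers, Plac1 and Tpbpa were not tested. The other 2, Elf5 and Gcm1, both fell and summed to at most 1.44 CPM in any library. Neuroectoderm genes had 7 of 20 members lower and 2 higher, and neural crest and placode genes 5 of 12 higher and 1 lower. In the wider list of 20 fibroblast feeder genes 1 rose and 1 fell.

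Families that share the start of a gene symbol were counted after the values were seen and with all 6 libraries only, 94 families with at least 15 tested genes each. Of 17 Klf genes, Krüppel-like factors, 12 rose and 0 fell, and beside the pluripotency members these included Klf6 (133, 146 and 141 CPM in knock-out libraries, against 84.3, 94.7 and 90.6 CPM in wild-type libraries, 0.64 ± 0.07), Klf7 (0.67 ± 0.11) and Klf13 (0.89 ± 0.14). Of 20 Platr genes, long noncoding RNAs of stem cells, 9 rose and 2 fell, with Platr10 at 232, 239.9 and 229 CPM in knock-out libraries and 108, 149 and 166 CPM in wild-type libraries (0.73 ± 0.12). Of 25 Arhgef genes, activators of small GTPases, 13 rose and 2 fell, among them Arhgef16 (1.52 ± 0.13) and Arhgef19 (1.09 ± 0.12). Arhgef26, 1 of the 2 that fell, had 11.3, 8.70 and 11.01 CPM in knock-out libraries and 94.1, 80.2 and 67.6 CPM in wild-type libraries (-2.96 ± 0.16, adjusted p = 8.96e-12). Rab genes, for vesicle transport, had 27 of 63 members higher and 9 lower, with the epithelial Rab25 at 1.07 ± 0.10. Unconventional and other myosins of the Myo stem had 10 of 24 higher and 3 lower, with Myo1c at 1.14 ± 0.13. Mitochondrial ribosomal Mrpl genes had 16 of 47 lower and 1 higher, such as Mrpl27 (-0.62 ± 0.08) and Mrpl39 (-0.43 ± 0.06).

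Part of the difference between genotypes followed position in the genome. On chromosome 12, of 83 tested genes between Cep128 and Vrk1 (chr12:90998492-106077426) 52 rose and 3 fell, with a median log2 fold change of 1.06. Of 98 tested genes beyond Vrk1 (to chr12:119469987), with Setd3 left out, 75 fell and 2 rose, with a median of -0.90. On chromosome 8, 369 of 845 genes rose and 82 fell (median 0.21), while the medians of the other autosomes and of X lay between -0.11 and 0.03. Calls were still uneven on chromosome 11, where 189 of 1316 genes rose and 357 fell. On X, 100 of 624 rose and 186 fell. Over all 17144 genes, 3563 rose and 3506 fell. Foxn3, a forkhead repressor in the raised block, had 208, 227 and 205 CPM in knock-out libraries, against 35.5, 46.2 and 48.0 CPM in wild-type libraries (2.30 ± 0.09, adjusted p = 3.84e-15), and Ston2, Ttc7b and Ptpn21 there rose by 1.95, 1.83 and 1.74. In the lowered block the chaperone gene Hsp90aa1 had 1804, 1783 and 1766 CPM in knock-out libraries, against 3596, 3232 and 3334 CPM in wild-type libraries (-0.92 ± 0.08, adjusted p = 4.81e-09), and Sp8, a zinc finger factor, and Dnah11, a ciliary dynein, fell by 3.66 and 2.57. Gsc, the organizer homeobox gene, was 1 of the 3 lowered genes in the raised block, with 1.95, 3.08 and 3.82 CPM in knock-out libraries, against 134, 74.4 and 53.9 CPM in wild-type libraries (-4.89 ± 0.40). Genes outside chromosome 8 and both blocks kept a similar share of calls: 3140 of 16117 rose and 3345 fell, 40.2% together.

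Set against the other days, the day 3 difference was larger than that of day 2, the last day without Activin A, for many genes. Genotypes differed in 3611 genes on day 0 (21.1%), 5480 on day 2 (32%), 7069 on day 3 and 9251 on day 4 (54%). A test of the difference between the day 3 and day 2 effects passed for 1877 genes (10.9%), 1134 with a more positive effect on day 3 (6.61%) and 743 with a more negative one (4.33%). Between days 3 and 4 the effect differed in 4079 genes (23.8%), 1913 more positive on day 3 (11.2%) and 2166 more negative (12.6%). Of the 899 genes at least 2-fold higher on day 3, 15.6% were also called higher on day 0, 42.4% on day 2 and 66% on day 4. Of the 1124 at least 2-fold lower, 26%, 49.2% and 74% were called lower on those days. Over all tested genes, 10.6%, 16.2% and 26.3% were called higher on days 0, 2 and 4, and 10.5%, 15.7% and 27.6% lower. These genes were chosen for their day 3 effect, so the shares are a description.

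In tight junction and simple keratin genes the genotype effect was more positive on day 3 than on day 2 in 9 of 21 genes and more negative in 0, and more positive than on day 4 in 8 and more negative in 0. The medians were -0.35 on day 0, -0.12 on day 2, 0.76 on day 3 and 0.02 on day 4. Ocln averaged 22.6 ± 0.997 CPM in knock-out and 30.7 ± 1.28 CPM in wild-type libraries on day 2, 36.4 ± 0.467 and 21.4 ± 2.30 CPM on day 3, and 44.0 ± 2.00 and 43.4 ± 2.21 CPM on day 4 (SD, n = 3 each). The wild-type level was thus lowest on day 3 and the knock-out level moved upwards throughout. The day 3 effect exceeded that of day 2 by 1.20 ± 0.14 (adjusted p = 1.75e-06) and that of day 4 by 0.74 ± 0.13 (adjusted p = 0.000196). Snai1 averaged 3.09 ± 0.371 CPM in knock-out and 4.00 ± 0.906 CPM in wild-type libraries on day 2, against 0.935 ± 0.183 and 14.9 ± 1.89 CPM on day 3 (difference of effects -3.60 ± 0.38, adjusted p = 9.03e-07). Cilium genes differed earlier, with medians of -0.16, -0.38, -0.44 and -0.59 on days 0, 2, 3 and 4, and the day 3 effect was more negative than on day 2 in 4 of 44 genes and more positive in 3. Ribosome biogenesis genes, at a median of 0.01 on day 3, had a more negative effect on day 3 than on day 4 in 25 of 30 members.

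Some day 3 differences did not persist. Nt5e, an ecto-nucleotidase, averaged 2.32 ± 0.425 CPM in knock-out and 25.3 ± 1.41 CPM in wild-type libraries on day 3, and 8.31 ± 2.42 and 5.79 ± 1.67 CPM on day 4 (difference of effects, day 3 minus day 4, -3.96 ± 0.43, adjusted p = 1.17e-06). Sall3, a zinc finger factor, averaged 2.42 ± 0.394 and 35.7 ± 3.42 CPM in knock-out and wild-type libraries on day 3, and 3.63 ± 1.40 and 4.05 ± 1.83 CPM on day 4 (-3.71 ± 0.41). Fst averaged 41.1 ± 5.12 CPM in knock-out and 315 ± 35.7 CPM in wild-type libraries on day 3, and 55.1 ± 14.7 and 32.3 ± 14.5 CPM on day 4 (-3.70 ± 0.48). In all 3 genes the wild-type level was higher on day 3 than on days 2 and 4, and no knock-out mean reached it. Mt1, a raised gene, also lost its difference by day 4, with 29.4 ± 0.876 CPM in knock-out and 6.18 ± 2.15 CPM in wild-type libraries on day 3, and 6.58 ± 0.876 and 6.44 ± 2.04 CPM on day 4 (2.21 ± 0.27, adjusted p = 4.79e-06). Its level did not peak on day 3. On day 2 it averaged 73.9 ± 5.91 CPM in knock-out and 30.8 ± 0.814 CPM in wild-type libraries, already a rise (log2 fold change 1.26).

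**Figure D5:**
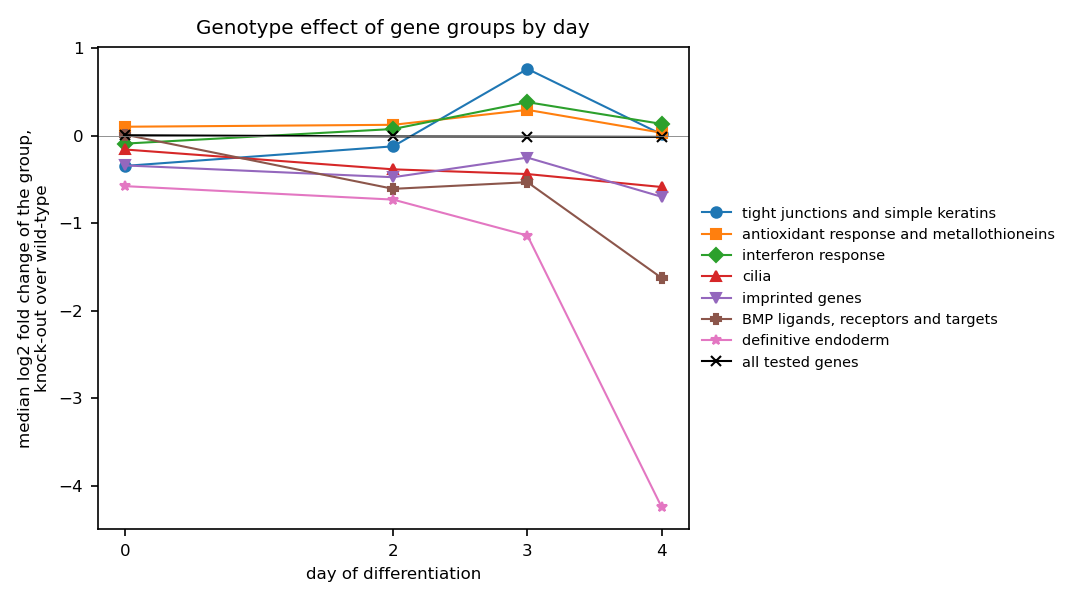
Median log2 fold change, knock-out over wild-type, of selected gene groups on days 0, 2, 3 and 4, with the median of all tested genes for comparison. Tight junction genes stand at 0.76 on day 3 and at or below 0.02 on the other days, while cilium genes lie below 0 on every day.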

How the data were processed

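RNA-seq libraries of knock-out and wild-type CJ9 cells on days 0, 2, 3 and 4 were used, 3 per group and 24 in all, and the day 3 libraries held 18756912 to 24244958 counts. The authors deposited raw counts per gene. Trimmomatic, HISAT2 and the build GRCm38.p6 are named in the submitters' processing notes, while versions, the counting tool, the annotation and the use of strand are not given in the sources used. Of 55401 entries 29207 had counts. Of 2090 blank gene names, 1805 were filled from GENCODE M21, which also gave the gene coordinates (GRCm38). Promoter windows came from RefSeq.

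Groups were taken from the labels. edgeR 4.0.16 in R 4.3.3 was run with TMM scaling, its filter on low counts by group and 1 robust quasi-likelihood model over all 8 groups, which left 17144 genes. The comparisons were knock-out minus wild-type on day 3 and the differences of that effect between days 3 and 2 and between days 3 and 4, with Benjamini-Hochberg adjustment over all genes and a threshold of 0.05. The script was tested on simulated data. Alternatives were DESeq2 1.42.0, RLE scaling (edgeR, with limma 3.58.1), no filter, a fit on the day 3 groups or the days compared alone, a block for replicate number, and each library left out. The values without wild-type replicate 1 for each gene group were added after seeing the data.

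The members and gene lists were chosen with earlier results of these data known. Genes named are Setd3, the 15 highest and 15 lowest fold changes outside the known streak, Wnt and pluripotency lists and outside chromosome 12 from 90 Mb (groups not overlapping, at least 10 CPM in the higher group), 4 each way on distal chromosome 12 and for each difference between days, and list members with the lowest adjusted p or that define their list. Some named by this rule are not reported here. Members of symbol families were named after their values were seen.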

Additional observations from a re-analysis of the deposited data

Results flagged for a closer look

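The genotype effect differed between days, tested as an interaction in edgeR with Benjamini-Hochberg adjustment over all genes. Between days 3 and 2 it was more positive on day 3 in 1134 genes and more negative in 743. Between days 3 and 4 it was more positive on day 3 in 1913 genes and more negative in 2166.

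Against day 2, the log2 effect was more positive on day 3 for Ttbk1 by 3.19, for Slc35d3 by 2.89, for Sez6, a neuronal membrane protein gene, by 2.81, for Ocln by 1.20 and for Marveld2 by 0.82. The difference of effects was -5.71 for Upp1, -5.12 for Pdgfra, -5.004 for Ntn1, -4.90 for Tfap2c, a factor of germ cells and trophoblast, -3.73 for Fgf17, -3.60 for Snai1 and -1.94 for Epha2. Ntn1 averaged 7.37 CPM in knock-out and 11.2 CPM in wild-type libraries on day 2, and 1.53 CPM in knock-out and 75.5 CPM in wild-type libraries on day 3.

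Against day 4, the effect on day 3 was more positive for genes with little RNA in either genotype on day 3 that were high in wild-type cells on day 4. These were Hnf4a (11.41), a nuclear receptor of liver and gut, Akr1c19 (7.87), Kcnj5 (7.76), a potassium channel gene, and Robo3 (7.55). Akr1c19 averaged 0.143 CPM in knock-out and 27.8 CPM in wild-type libraries on day 4. Hnf4a was at 0 in knock-out libraries on day 4, so its fitted value depends on the prior count and is no bound. The effect was also more positive on day 3 for Mt2 (3.03), Mt1 (2.21), Grb10 (2.20) and Marveld2 (0.78). It was more negative on day 3 for Nt5e (-3.96), Sall3 (-3.71), Fst (-3.70) and Vat1l (-3.50), a gene of chromosome 8.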

How the results depend on the processing

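The day 3 counts stayed within 1.5 times the reported ones under every alternative run, at 2863 to 3372 genes higher and 2813 to 3294 lower with 1 library left out, the lowest without wild-type replicate 1. For the day 3 minus day 2 effect, leaving out 1 library gave 773 to 1185 genes higher and 526 to 797 lower, and for day 3 minus day 4 it gave 1596 to 1960 higher and 1773 to 2160 lower. One count moved: fitted on only the groups compared, 1727 genes had a more positive effect on day 3 than on day 2, and the cause was not tested. Without a filter 3255 genes were higher and 3257 lower, and without chromosome 8 and distal chromosome 12 the counts were 3122 and 3327. Between genotypes on day 3, replicate numbers showed little pairing of libraries (correlations of deviations of 0.0077, 0.0215 and 0.0021). For same-numbered libraries of one genotype on days 2 and 3, or 3 and 4, these correlations ran from -0.0224 to 0.165. Pairing across days was therefore not excluded. With the replicate block 3596 genes were higher and 3536 lower on day 3, 1151 and 761 for day 3 minus day 2, and 1945 and 2203 for day 3 minus day 4. With 1 library left out the sign reversed for 3 genes that had not passed on day 3, over ranges of -0.29 to 2.47 for Akr1c19, -1.78 to 0.23 for Hnf4a and -0.028 to 0.19 for Krt19. Of 257 results on single genes, 238 kept their direction and their side of the threshold under all alternatives run.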
